A study of Homo sapiens with 6 samples.

Results

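The genes described here are 38 that code for the enzymes of glycolysis, the kinases that set its pace, the hypoxia-inducible factors (HIF) with their oxygen sensors, and well-known targets of HIF. They were listed by name and pathway role, with no value from the comparison in the rule, but with earlier results of these data known. All 38 were found among the 65198 gene rows of the deposited table through their Ensembl identifiers. Expression was measured in MDA-MB-231, a human breast cancer line of the basal-like subtype derived from an epithelial adenocarcinoma. In the shHOTAIR cells (Tet-shHOTAIR) doxycycline switched on a hairpin directed at the long non-coding RNA HOTAIR, and in the shCtrl cells (Tet-shCtrl) a scrambled hairpin. Both received doxycycline at 1 µg/ml over 96 h in medium with serum, and no sample was grown in low oxygen as far as the labels say. There were 3 libraries of each derivative, 6 in all. The labels name a single derivative for each hairpin, so every p-value measures only the spread between libraries within a derivative, and an effect of the hairpin and a difference between the derivatives cannot be told apart.

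Glycolysis turns glucose into pyruvate in the cytosol, and lactate dehydrogenase then turns pyruvate into lactate, a route that many tumour cells use even when oxygen is plentiful. Most of its steps are carried by several isozymes from separate genes. HIF is a dimer of an alpha subunit (HIF-1-alpha from HIF1A or HIF-2-alpha from EPAS1) with ARNT. With oxygen, prolyl hydroxylases (EGLN genes) mark the alpha subunit and the VHL protein has it degraded, so that HIF is governed largely at the protein level, which RNA sequencing does not show. In low oxygen the dimer binds short DNA elements near genes of glycolysis, angiogenesis and mitochondrial turnover and raises their transcription.

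Expression was available as FPKM, a fragment number scaled by transcript length and library depth, which allows levels of different genes to be compared per length. HOTAIR itself was listed at 0 in 3 of the 6 libraries and did not exceed 0.0132 FPKM in any, so the knockdown had no check in these values. The worth of a single fragment, relative to shCtrl 1, was judged from the steps between low FPKM values. It was between 0.812 and 0.839 in the other shCtrl libraries and between 0.595 and 0.717 in shHOTAIR. Summed FPKM was 2224150 to 2569505 in shCtrl and lower in shHOTAIR as well, at 1620978 to 1820768. These steps therefore do not show which group was sequenced more deeply. Genes of the mitochondrial genome held 57.2% to 63.3% of the summed FPKM in shCtrl and 42.4% to 48.5% in shHOTAIR, and the part of this shift in the results below was not tested. The markers expected in these cells (VIM, CD44, EGFR, KRT8 and KRT18) were all present, but most differed between the derivatives. VIM fell from 948 ± 37.1 to 393 ± 27.3 FPKM (limma adjusted p = 0.000616). VIM lies on chromosome 10, where most genes were lower in shHOTAIR. Its log2 change was -1.27, and the median of its 50 nearest coding genes was -0.75. After centring on these neighbours the change of VIM was -0.52 (limma adjusted p = 0.00932). EGFR rose from 76.7 ± 5.56 to 157 ± 7.96 FPKM, KRT8 from 141 ± 10.6 to 241 ± 37.5 and KRT18 from 150 ± 9.27 to 232 ± 22.4. Their limma adjusted p was 0.00110, 0.0127 and 0.00706. CD44 did not pass (475 ± 26.0 and 480 ± 43.9 FPKM, limma adjusted p = 0.945). ESR1, PGR and CDH1, which the line is known to lack, stayed at or below 0.114 FPKM. The summed level of 6 fibroblast markers was 2.66 to 3.41 FPKM in shCtrl and 4.42 to 5.88 in shHOTAIR, that of 5 endothelial markers 1.59 to 1.97 and 2.23 to 3.00, and that of 6 leukocyte markers 21.6 to 22.5 and 16.4 to 19.9. The fibroblast collagen COL1A2 (at most 0.0308 FPKM), the endothelial cadherin CDH5 (at most 0.0618) and the leukocyte antigen PTPRC (at most 0.236) were at or near 0. Others of these lists were not: COL1A1 rose from 1.33 ± 0.251 to 3.51 ± 0.282 FPKM (limma adjusted p = 0.00572), KDR was at 1.44 ± 0.0960 and 2.29 ± 0.421 FPKM (adjusted p = 0.0842), and CD68 made up most of the leukocyte sum at 20.9 ± 0.417 and 17.6 ± 1.67 FPKM (adjusted p = 0.0763). Their part in the results was not tested. In RNA from whole cultures, fewer cells of a kind and less RNA per cell cannot be told apart.

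The DNA core that HIF binds can be read in the promoters of several of these genes. Sequences were taken from RefSeq (GRCh38.p14), and the 250 bases before the RefSeq start were searched on both strands for ACGTG and GCGTG, where CACGTG is a match on both strands. Promoters were at hand for 33 of the 38 genes, and 21 of these (63.6%) held at least 1 match, against 58.4% of the 9261 promoters of protein-coding genes tested below and 43.1% of all 27305 promoters in the table. The stretches below, 5′ to 3′ on the strand of the gene with the matches in capitals, belong to ADM, a target that rose in shHOTAIR, to ANKRD37, P4HA1, BNIP3 and PFKFB3, which fell, and to LDHA, the most abundant enzyme, whose change did not pass the test.
ADM (chr11:10304959-10304988, plus strand): agagcaggagcgcGCGTGgctgaggaaaga
ANKRD37 (chr4:185396676-185396705, plus strand): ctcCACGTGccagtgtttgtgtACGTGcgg
P4HA1 (chr10:73096936-73096965, minus strand): gtgtgatcgagctCACGTagcgagggctgc
LDHA (chr11:18394470-18394499, plus strand): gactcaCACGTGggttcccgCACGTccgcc
BNIP3 (chr10:131982014-131982173, minus strand): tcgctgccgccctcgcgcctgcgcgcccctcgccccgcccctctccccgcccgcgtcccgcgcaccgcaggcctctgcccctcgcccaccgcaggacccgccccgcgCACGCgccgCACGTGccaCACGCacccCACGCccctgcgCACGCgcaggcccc
PFKFB3 (chr10:6144671-6144920, plus strand): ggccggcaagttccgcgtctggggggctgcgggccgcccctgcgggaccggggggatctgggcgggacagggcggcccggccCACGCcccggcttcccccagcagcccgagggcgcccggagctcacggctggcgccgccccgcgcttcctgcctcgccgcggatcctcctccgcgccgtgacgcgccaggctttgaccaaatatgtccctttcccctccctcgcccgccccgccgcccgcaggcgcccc
BNIP3 held 5 separate matching stretches and ANKRD37 and LDHA 2 each in the bases shown. Genes with matches stood on every side of the comparison: matches were found in 8 of the 10 genes that fell, in 6 of the 8 that rose and in 6 of the 14 with a promoter that were tested and did not pass. A match is a description of the letters and does not show binding.

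The comparison asked how these genes differed when HOTAIR was targeted. HIF1A and EPAS1 were 1.92-fold and 2.51-fold higher in shHOTAIR, but the enzymes and the HIF targets went both ways. Of the 38 genes 37 reached a mean of 1 FPKM over the 6 libraries and were tested, and 18 of them (48.6%) had an adjusted p under 0.05 by limma, of which 8 were higher in shHOTAIR and 10 lower. Over all 15934 genes tested 23.8% passed, 11.5% higher and 12.4% lower, and over the 11587 protein-coding genes 28.7% passed. The median log2 change was 0.04 for the 37 genes and -0.03 for all genes tested. No overlap between the groups was seen for 26 of the 37 genes, against 43.0% of all genes tested. The location of a gene went with its direction: of the 6 members on chromosome 10, where most genes were lower in shHOTAIR, 5 fell and none rose, and of the 31 tested members elsewhere 8 rose and 5 fell.

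**Figure D1:**
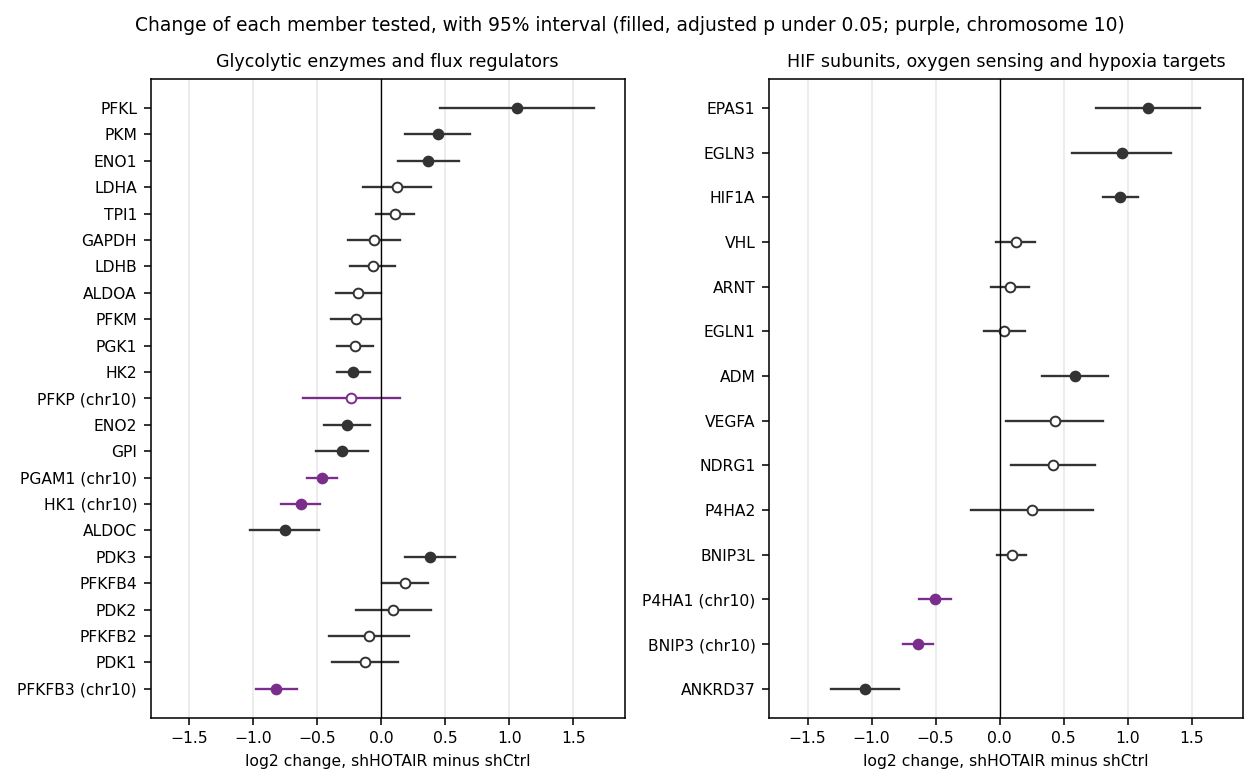
Log2 change of each of the 37 genes tested (shHOTAIR minus shCtrl, on the log2(FPKM + 1) scale) with its 95% interval from limma, 3 libraries per group. Filled points passed an adjusted p of 0.05 and purple marks chromosome 10; EPAS1, PFKL, EGLN3 and HIF1A lie farthest to the right and ANKRD37 farthest to the left.

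Levels of the enzymes ranged over several orders of magnitude. LDHA, which makes lactate from pyruvate, led with 9401 ± 726 FPKM in shCtrl and 10244 ± 922 in shHOTAIR (mean ± SD, n = 3 per group). GAPDH (2336 ± 191 and 2244 ± 87.2 FPKM) and PKM (1769 ± 42.1 and 2412 ± 293 FPKM) came next, GAPDH above PKM in every shCtrl library and the groups of values overlapping in shHOTAIR. They were followed by ALDOA, ENO1, PGK1 and LDHB. ALDOA was above ENO1 in every shCtrl library, and ENO1 (1712 to 2108 FPKM) above ALDOA in every shHOTAIR library. GAPDH, PKM, ALDOA, ENO1 and PGK1 were all between 858 and 2639 FPKM in each library. LDHB (849 to 988 FPKM) overlapped PGK1 (858 to 1054). The values of PKM (1725 to 1809 FPKM) and ALDOA (1705 to 1769) overlapped in shCtrl, whereas in shHOTAIR every PKM value (2081 to 2639) was above every ALDOA value (1420 to 1635). The lowest enzyme genes were PFKL and ALDOC. CA9, a carbonic anhydrase and a well-known HIF-1 target, was at 0.267, 0.230 and 0.0594 FPKM in the shCtrl libraries and at 0.183, 0.292 and 0.204 in those of shHOTAIR, under the filter in both derivatives and with overlapping groups.

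**Figure D2:**
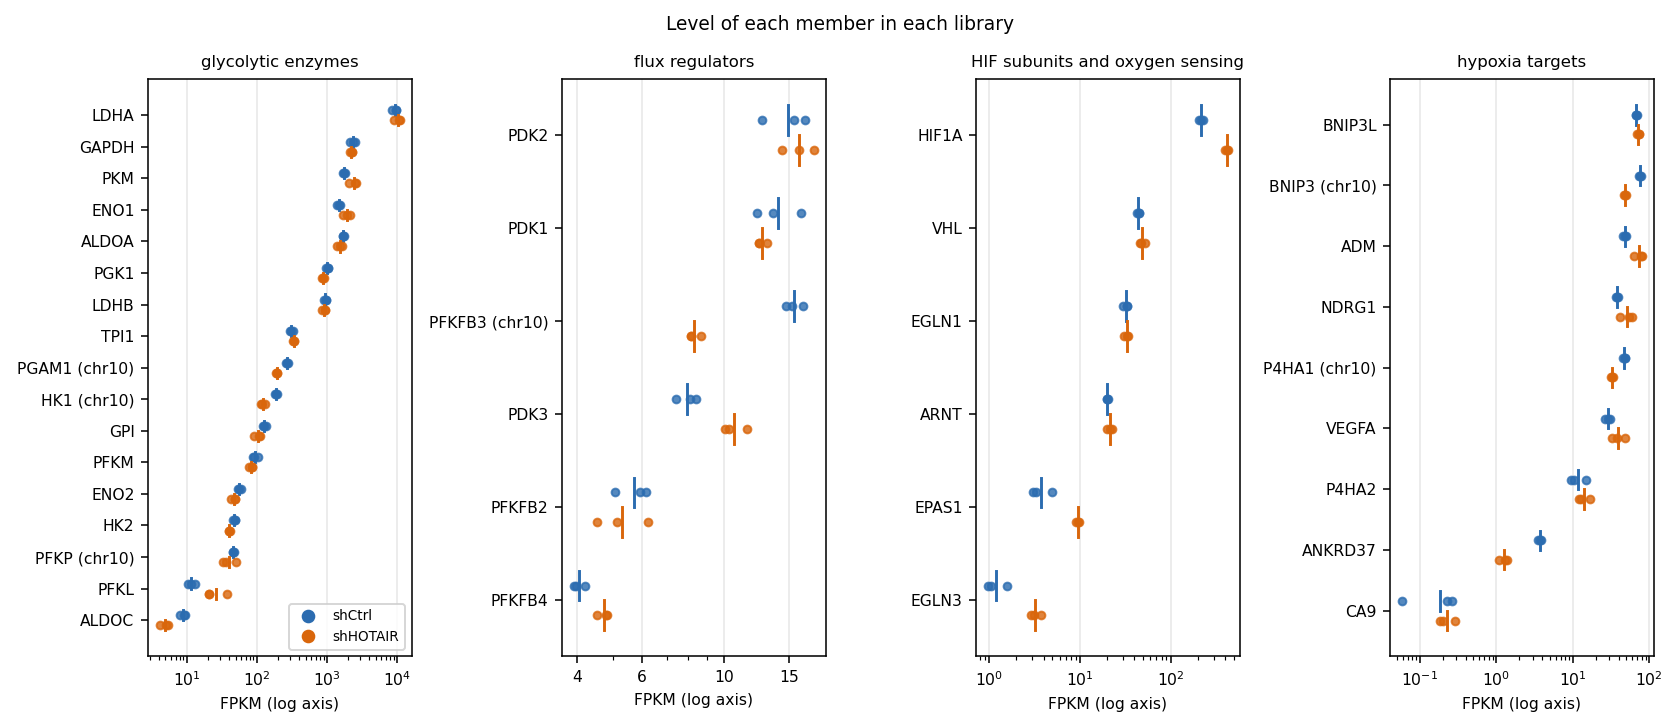
FPKM of each of the 38 genes in each of the 6 libraries on a log axis, by role, with vertical bars at the group means (blue, shCtrl; orange, shHOTAIR). The HIF1A values of shHOTAIR (402 to 426 FPKM) stand clear of those of shCtrl (206 to 225), and CA9 lies below 0.3 FPKM in every library.

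Of the 17 glycolytic enzymes 3 rose, 6 fell and 8 did not pass, with a median log2 change of -0.20. The share that passed was 52.9%, against 23.8% of all genes tested and 28.7% of the protein-coding ones. Off chromosome 10 there were 14 of these enzymes, of which 3 rose and 4 fell. At the entry step, HK1, the hexokinase that phosphorylates glucose in most tissues, was at 188, 185 and 192 FPKM in shCtrl 1, 2 and 3 (the order used throughout) and read 120, 130 and 114 in shHOTAIR 1, 2 and 3. The groups were far apart, and HK1 fell by a log2 change of -0.63 (SE 0.062, limma adjusted p = 0.00225). HK2, the inducible hexokinase of tumours, fell less, from 45.2, 48.4 and 49.3 FPKM to 41.4, 40.6 and 40.3 (log2 change -0.22, limma adjusted p = 0.0314), a call kept when shCtrl 1 was left out and lost when any other library was (adjusted p up to 0.0838). GPI, which isomerizes glucose 6-phosphate, was at 128 ± 6.03 and 104 ± 9.50 FPKM and fell by -0.31 (limma adjusted p = 0.0472), and the call was lost without any 1 of the 6 libraries (up to 0.133). The gene AC092073.1 shares 542 exon bases with GPI on the same strand and was at 54.8 and 50.5 FPKM, so reads of these genes cannot be fully separated.

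Phosphofructokinase commits the sugar to glycolysis, and its 3 subunit genes differed. PFKL, the liver-type subunit, rose from 11.5, 10.3 and 13.3 FPKM to 20.9, 37.1 and 21.1 (log2 change 1.06, SE 0.241, limma adjusted p = 0.0287). Every shHOTAIR value lay above every shCtrl value, with shHOTAIR 2 the highest, and the call was lost, with adjusted p of at most 0.0996, when shHOTAIR 3 or any shCtrl library was left out. PFKM, the most abundant of the subunits, was at 94.7 ± 8.03 and 82.2 ± 4.28 FPKM (limma adjusted p = 0.129). PFKP, the platelet-type subunit, read 46.9, 46.2 and 46.0 FPKM in shCtrl against 32.9, 49.9 and 36.8 in shHOTAIR. Its groups overlapped through shHOTAIR 2 (log2 change -0.23, 95% interval -0.61 to 0.15, limma adjusted p = 0.326), and without that library the log2 change was -0.40 with an adjusted p of 0.0273, in a range of 0.0273 to 0.617 over its alternatives.

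In the middle of the pathway most of the abundant enzymes did not pass. ALDOA, the main aldolase, was at 1727 ± 36.5 and 1527 ± 108 FPKM (limma adjusted p = 0.129), whereas its minor relative ALDOC fell from 9.20, 9.50 and 8.16 FPKM to 5.42, 5.15 and 4.20 (log2 change -0.75, limma adjusted p = 0.00679). The ALDOC call held under all 16 alternatives run. TPI1 (313 ± 18.2 and 336 ± 7.85 FPKM, adjusted p = 0.259 in limma), GAPDH (adjusted p = 0.663) and PGK1 (1018 ± 44.4 and 882 ± 22.0 FPKM, adjusted p = 0.0525) did not pass. For GAPDH the 95% interval of the log2 change was -0.26 to 0.15, and the antisense gene AC006064.4, which shares 422 exon bases with it, was listed at 680 and 651 FPKM. PGAM1, the phosphoglycerate mutase on chromosome 10, fell from 259, 267 and 277 FPKM to 190, 195 and 195 (log2 change -0.46, limma adjusted p = 0.00254), with no overlap of the groups.

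In the last steps of the pathway ENO1 and PKM rose, ENO2 fell, and LDHA and LDHB did not pass. ENO1, the common enolase, rose from 1508, 1397 and 1555 FPKM to 1712, 1948 and 2108 (log2 change 0.37, limma adjusted p = 0.0439), and ENO2, the neuronal form, fell from 56.2, 53.8 and 59.6 FPKM to 43.1, 48.4 and 49.0 (-0.27, adjusted p = 0.0473). Neither group pair overlapped, but the call of ENO1 was kept when shHOTAIR 1 was left out and lost when any other library was (adjusted p up to 0.135) and that of ENO2 without any 1 library (up to 0.128). PKM, which makes pyruvate, rose from 1772, 1725 and 1809 FPKM to 2081, 2517 and 2639 (log2 change 0.44, limma adjusted p = 0.0310), with the same dependence on the libraries (adjusted p up to 0.108). Gene-level values do not separate the M1 and M2 splice forms of PKM. LDHA (log2 change 0.12, 95% interval -0.15 to 0.39, limma adjusted p = 0.449) and LDHB, which favours the conversion of lactate to pyruvate (952 ± 47.6 and 909 ± 52.0 FPKM, adjusted p = 0.531), were the others of these steps. Processed pseudogenes of these enzymes, 62 of them for GAPDH, were listed at 0.203% of the FPKM of GAPDH, 0.108% of that of LDHA and 1.16% of that of PGAM1.

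Among the 6 regulators of flux 1 rose and 1 fell (33.3%, against 23.8% of all genes tested and 28.7% of the protein-coding ones). PFKFB3, whose product makes the activator of phosphofructokinase fructose 2,6-bisphosphate, fell from 15.2, 16.4 and 14.7 FPKM to 8.67, 8.13 and 8.14 (log2 change -0.82, SE 0.063, limma adjusted p = 0.00126). All 3 shHOTAIR values lay well below shCtrl. Its relatives PFKFB2 (5.70 ± 0.567 and 5.29 ± 0.860 FPKM, limma adjusted p = 0.622) and PFKFB4 (4.04 ± 0.156 and 4.72 ± 0.157 FPKM, adjusted p = 0.129) did not pass, though the groups of PFKFB4 did not overlap. Pyruvate dehydrogenase kinases inhibit pyruvate dehydrogenase, which turns pyruvate into acetyl-CoA in the mitochondrion. PDK3 rose from 7.38, 8.38 and 8.07 FPKM to 11.5, 10.3 and 10.0 (log2 change 0.38, limma adjusted p = 0.0221), with a call lost without any 1 library (up to 0.0734). PDK1, the best-known HIF target of the family, was at 14.0 ± 1.96 and 12.6 ± 0.383 FPKM (log2 change -0.13, 95% interval -0.38 to 0.13, limma adjusted p = 0.429) and PDK2 at 14.9 ± 1.97 and 15.9 ± 1.56 FPKM (adjusted p = 0.602).

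Shares of isozymes within a library are not moved by a scaling factor common to that library, and 16 of them were compared. An exact two-sided permutation test of 3 against 3 libraries cannot go below p = 0.1. Of the 16 shares 12 reached that value, with groups that did not overlap (p = 0.133 after Benjamini-Hochberg adjustment over the 16, exact permutation test). Of all single genes tested 43.0% had groups that did not overlap. Shares of the same family add up to a fixed total, so the 16 are not all separate results. The 12 include HK2, PFKFB2, PFKFB3, PFKFB4, P4HA1 and BNIP3. Their families hold HK1, PFKFB3, P4HA1 or BNIP3, which fell and lie on chromosome 10, where 67.3% of coding genes fell. The part of this location in the shares was not tested. The share of PFKL in phosphofructokinase FPKM was 7.68% ± 0.983 in shCtrl and 17.4% ± 3.64 in shHOTAIR (SD, n = 3 per group). PFKFB3 made up 61.3% ± 2.83 of the sum with PFKFB2 and PFKFB4 in shCtrl and 45.4% ± 2.03 in shHOTAIR, and PFKFB2 22.7% ± 2.35 and 28.8% ± 3.67. HK2 made up 20.2% ± 0.704 and 25.2% ± 1.22 of the hexokinase pair, although HK2 itself fell, since HK1 fell further. Among the kinases of pyruvate dehydrogenase PDK3 went from 21.7% ± 1.62 to 27.2% ± 2.74 and PDK1 from 37.9% ± 1.66 to 32.2% ± 0.163. The share of BNIP3 in the pair BNIP3 and BNIP3L was 53.0% ± 0.792 and 40.2% ± 0.479, so that the more abundant gene of the pair was BNIP3 in shCtrl and BNIP3L in shHOTAIR. The groups overlapped for LDHB within lactate dehydrogenase (9.23% ± 0.910 and 8.19% ± 0.933, exact permutation p = 0.3), where the difference of -1.04 points became -2.85 after quantile normalization (exact permutation p = 0.2), for PFKP, for PDK2 and for EPAS1 within the pair HIF1A and EPAS1 (1.73% ± 0.553 and 2.23% ± 0.151, exact permutation p = 0.3).

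**Figure D3:**
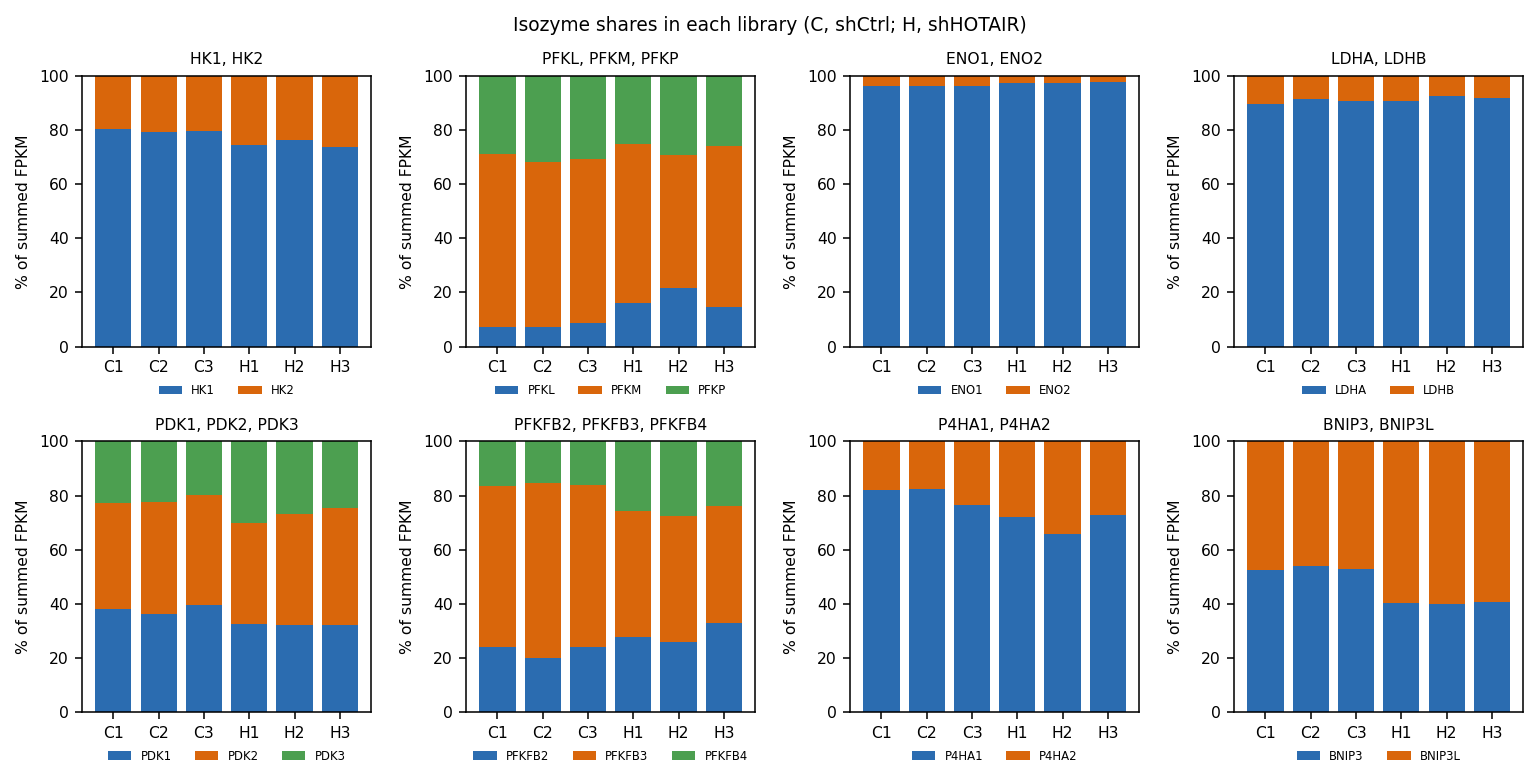
Share of each isozyme in the summed FPKM of the members of its family, one stacked bar per library (C1 to C3, shCtrl; H1 to H3, shHOTAIR). The enolase sum leaves out ENO3, which is not a member and was at 74.7 ± 11.1 FPKM in shCtrl and 69.1 ± 9.87 in shHOTAIR. The PFKL segment is larger and the PFKFB3 and BNIP3 segments are smaller in every shHOTAIR library than in any shCtrl library, while the LDHB segments overlap.

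The alpha subunits of HIF and 1 of the sensors rose, which is 3 of the 6 genes of this role, and none of the 6 fell. Of all genes tested 11.5% were higher and 12.4% lower, so the lack of a fall among 6 genes says little by itself. HIF1A (chr14:61695513-61748259 on GRCh38, plus strand) read 225, 216 and 206 FPKM in the shCtrl libraries against 417, 402 and 426 in shHOTAIR, with no overlap. It was 1.92-fold higher in shHOTAIR (log2 change 0.94, SE 0.055, limma adjusted p = 0.000699), and the call held under all 16 alternatives run. The overlapping processed transcript AL137129.1, which shares 148 exon bases with HIF1A on the same strand, also rose, from 25.4 to 62.2 FPKM (limma adjusted p = 0.00288). EPAS1 (chr2:46293667-46386703, plus strand) rose from 3.26, 3.05 and 5.0 FPKM to 9.50, 9.82 and 9.07 (log2 change 1.16, SE 0.162, limma adjusted p = 0.00635) and likewise passed under all 16 alternatives. In FPKM it remained a small part of the alpha subunit transcripts. EGLN3, an oxygen sensor that is itself a HIF target, rose from 0.980, 1.57 and 1.06 FPKM to 3.70, 3.16 and 2.87 (log2 change 0.95, limma adjusted p = 0.0103). The main sensor EGLN1 (31.9 ± 1.46 and 32.8 ± 1.88 FPKM, 95% interval of the log2 change -0.12 to 0.20), the dimer partner ARNT (20.1 ± 0.389 and 21.4 ± 1.29 FPKM) and VHL (44.2 ± 1.01 and 48.3 ± 3.23 FPKM) did not pass, with limma adjusted p of 0.718, 0.381 and 0.208.

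The HIF targets did not move together: of the 8 tested 1 rose, 3 fell and 4 did not pass, and their median log2 change was 0.17. Of all genes tested 23.8% passed, and of the protein-coding ones 28.7%. Off chromosome 10 there were 6 tested targets, of which 1 rose and 1 fell, with a median log2 change of 0.33. There 5 of the 6 changes were positive, and that of ANKRD37 was negative. ADM, the vasodilator peptide adrenomedullin, rose from 48.8, 45.8 and 49.8 FPKM to 62.5, 79.7 and 77.5 (log2 change 0.59, limma adjusted p = 0.0129), a call lost with adjusted p of at most 0.0537 when shCtrl 1, shCtrl 2 or shHOTAIR 3 was left out. VEGFA, the main angiogenic factor, was at 30.7, 29.2 and 26.1 FPKM and at 32.4, 48.1 and 37.8, with the lowest shHOTAIR value just above the highest of shCtrl (log2 change 0.43, 95% interval 0.05 to 0.81, limma adjusted p = 0.0999). The antisense gene AL136131.3, which shares 188 exon bases with VEGFA, rose from 27.5 to 65.2 FPKM (limma adjusted p = 0.00935), and the sources used here do not say whether reads were counted by strand. NDRG1, a stress-induced gene, was at 38.3 ± 1.41 and 51.9 ± 9.02 FPKM (limma adjusted p = 0.0759). Without shHOTAIR 1 the NDRG1 log2 change went from 0.42 to 0.56 with an adjusted p of 0.0127, in a range of 0.0127 to 0.188 over its alternatives.

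ANKRD37, an ankyrin repeat protein that is among the most consistently HIF-induced genes, went the other way. It fell from 3.56, 3.84 and 3.70 FPKM to 1.32, 1.38 and 1.11 (log2 change -1.05, SE 0.107, limma adjusted p = 0.00251), 2.92-fold by group means, and passed under all 15 alternatives that tested it. ANKRD37 (chr4:185396021-185400628, plus strand) shares 909 exon bases with UFSP2 on the other strand, and UFSP2 fell from 42.9 to 19.6 FPKM (limma adjusted p = 0.00352), so part of the values of ANKRD37 may be reads of UFSP2. The mitophagy receptor BNIP3 fell from 76.3, 78.1 and 74.3 FPKM to 47.1, 48.8 and 49.7 (log2 change -0.64, limma adjusted p = 0.00115), and P4HA1, a collagen prolyl 4-hydroxylase, from 47.6, 44.8 and 48.1 FPKM to 33.7, 32.1 and 32.6 (-0.50, adjusted p = 0.00245). Both lie on chromosome 10. Their relatives elsewhere, BNIP3L (67.5 ± 1.38 and 72.1 ± 2.06 FPKM, limma adjusted p = 0.202) and P4HA2 (11.6 ± 2.84 and 13.9 ± 2.38 FPKM, adjusted p = 0.396), did not pass. BNIP3 has 39 annotated pseudogenes, listed at 19.8 and 16.1 FPKM in sum, so reads may be split between them and BNIP3.

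The 6 members on chromosome 10 were set beside their neighbours, since 298 of the 443 protein-coding genes tested there (67.3%) fell in shHOTAIR, 12 rose and their median log2 change was -0.52, the lowest of the chromosomes. From the short-arm end to the long-arm end these members are PFKP (chr10:3066333-3137712), PFKFB3 (chr10:6144934-6254644), HK1 (chr10:69269984-69401884), P4HA1 (chr10:73007217-73096974), PGAM1 (chr10:97426160-97433441) and BNIP3 (chr10:131966455-131982013). The median log2 change of the 50 nearest coding genes was -0.69 at PFKP, -0.68 at PFKFB3, -0.48 at HK1, -0.52 at P4HA1, -0.45 at PGAM1 and -0.48 at BNIP3. The members' own changes were -0.23, -0.82, -0.63, -0.50, -0.46 and -0.64 in that order, so all but PFKP were close to the level of their surroundings.

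After each gene was centred on those 50 neighbours, none of the 6 passed: adjusted p in limma was 0.110 for PFKP (log2 change 0.46), 0.244 for PFKFB3 (-0.14), 0.171 for HK1 (-0.15), 0.842 for P4HA1 (0.02), 0.891 for PGAM1 (-0.01) and 0.0805 for BNIP3 (-0.16). Under each of the other 15 alternatives the 5 that fell passed. Among all 37 members 9 passed after this centring (24.3%, against 15.6% of all genes so tested), 7 higher and 2 lower. The 9 were HIF1A (0.83), EPAS1 (1.18), EGLN3 (0.94), ADM (0.74), VEGFA (0.91), PKM (0.42), BNIP3L (0.18), ANKRD37 (-0.77) and ALDOC (-0.67). VEGFA, whose neighbours on chromosome 6 had a median log2 change of -0.48, passed there alone (adjusted p = 0.0131, in a range of 0.0131 to 0.251 over its alternatives), as did BNIP3L (adjusted p = 0.0489, range 0.0489 to 0.384). In the other direction PFKL, with neighbours on chromosome 21 at 0.38, went from a log2 change of 1.06 to 0.68 (adjusted p = 0.120), and ENO1, with neighbours at 0.25, from 0.37 to 0.12 (adjusted p = 0.400). HK2, GPI, ENO2 and PDK3 also lost their calls, with log2 changes of -0.10, -0.16, -0.21 and 0.24.

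**Figure D4:**
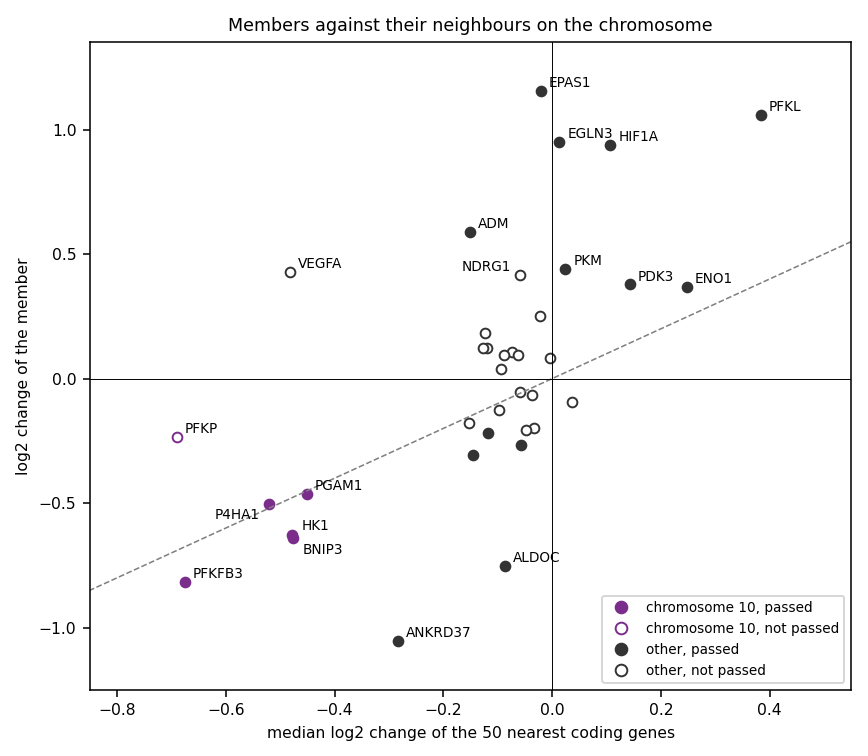
Log2 change of each tested member against the median log2 change of its 50 nearest coding genes; the dashed line marks equal values, filled points passed an adjusted p of 0.05 and purple marks chromosome 10. Of the chromosome 10 members 5 lie near the line and PFKP above it, while HIF1A, EPAS1, EGLN3 and ANKRD37 lie away from it.

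Other genes of the same pathways were taken from a list of 89, of which 72 were tested. Of these 7 rose and 9 fell, and the median log2 change was -0.02. That is 22.2%, against 23.8% of all genes tested and 28.7% of the protein-coding ones. SLC2A1, the basal glucose transporter GLUT1, rose from 122, 129 and 129 FPKM to 194, 164 and 168 (log2 change 0.47, limma adjusted p = 0.0105), and after centring on neighbours the log2 change was 0.34 with an adjusted p of 0.0663, the highest over its alternatives. SLC16A3, the lactate exporter MCT4, was at 88.4 ± 7.09 and 106 ± 6.62 FPKM (adjusted p = 0.0750 in limma). Of the other lactate carriers, SLC16A1 had a mean below 1 FPKM. SLC16A7, named after its values were seen, was at 24.6 ± 1.14 and 24.5 ± 2.42 FPKM (limma adjusted p = 0.959). PCK2, the mitochondrial enzyme that makes phosphoenolpyruvate, fell from 10.9, 9.47 and 11.7 FPKM to 5.83, 6.29 and 6.38 (log2 change -0.70, limma adjusted p = 0.00498).

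Regulators of HIF outside the members included 3 that fell and 1 that rose of 12 tested. That is 33.3%, against 23.8% of all genes tested and 28.7% of the protein-coding ones. HIF1AN, the asparaginyl hydroxylase that blocks the activity of HIF-alpha, fell from 26.8 ± 1.27 to 18.5 ± 0.201 FPKM (limma adjusted p = 0.00261), and CUL2, a scaffold of the VHL ubiquitin ligase named after its values were seen, from 80.9 ± 5.47 to 60.0 ± 2.29 FPKM (adjusted p = 0.00903). Both lie on chromosome 10, where 67.3% of coding genes fell, and after centring on neighbours their log2 changes were 0.03 and 0.12 (adjusted p = 0.753 and 0.274). CITED2, which competes with HIF for the coactivator p300, fell from 78.7 ± 6.95 to 54.2 ± 1.43 FPKM (limma adjusted p = 0.00675). ARNT2, a relative of ARNT, rose from 4.16 ± 1.18 to 8.04 ± 0.929 FPKM (limma adjusted p = 0.0245), a call kept when shCtrl 2 was left out and lost when any other library was (adjusted p up to 0.0924).

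Of 27 further hypoxia-inducible genes tested 3 rose and 4 fell, with a median log2 change of -0.00. That is 25.9%, against 23.8% of all genes tested and 28.7% of the protein-coding ones. LOX, a lysyl oxidase, fell from 17.6, 20.5 and 19.2 FPKM to 7.74, 6.42 and 5.75 (log2 change -1.40, limma adjusted p = 0.00143). CXCR4, a chemokine receptor, fell from 37.5, 37.1 and 38.3 FPKM to 13.4, 14.3 and 15.2 (-1.34, adjusted p = 0.000406 in limma), and STC1, the hormone stanniocalcin, from 158 ± 3.39 to 86.6 ± 8.08 FPKM (-0.87, adjusted p = 0.00172). These 3 passed under all 16 alternatives. MXI1, an antagonist of MYC on chromosome 10, fell as well (16.5 ± 1.59 to 10.2 ± 0.831 FPKM, limma adjusted p = 0.00706), and after centring on neighbours its log2 change went from -0.65 to -0.21 (adjusted p = 0.176, the highest over its alternatives). In the other direction ZNF395 rose from 20.1 ± 1.92 to 39.0 ± 6.47 FPKM, and the collagen lysyl hydroxylase PLOD1 from 21.3 ± 0.931 to 32.8 ± 2.83 FPKM, with limma adjusted p of 0.00766 and 0.00497. KDM5B, PGM1 and PGLS, named after their values were seen, passed with log2 changes of 0.40, 0.26 and -0.30. After centring on neighbours KDM5B kept its call (0.31, adjusted p = 0.0268 in limma), and PGM1 (0.04, adjusted p = 0.736) and PGLS (-0.10, adjusted p = 0.452) did not.

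**Figure D5:**
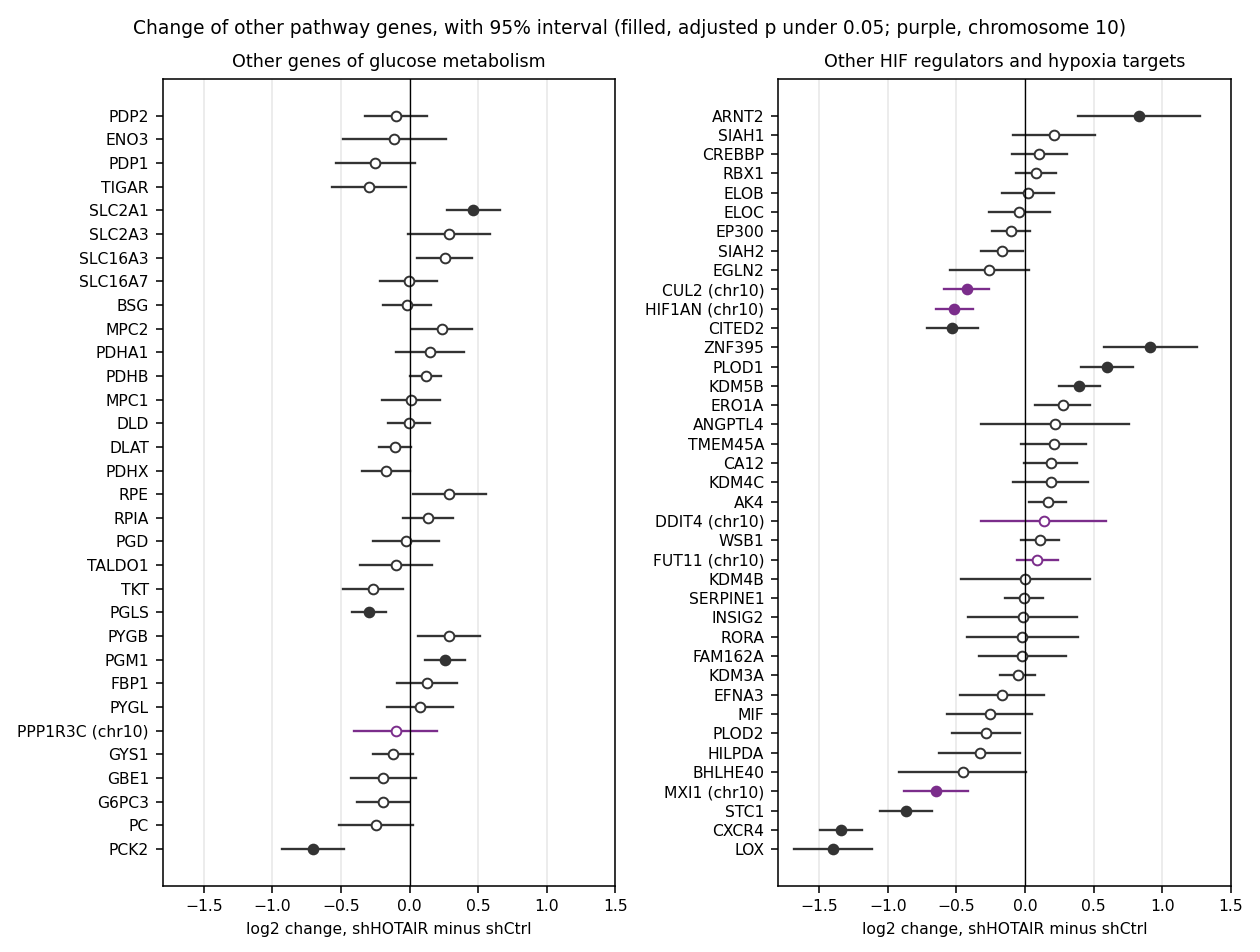
Log2 change with 95% interval of other pathway genes, in role groups from top to bottom (left, glucose metabolism; right, HIF regulators above hypoxia targets). Filled points passed an adjusted p of 0.05 and purple marks chromosome 10; LOX and CXCR4 lie farthest to the left, ZNF395 and ARNT2 far to the right.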

How the data were processed

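Poly(A)-selected RNA of 6 libraries (3 shCtrl, 3 shHOTAIR) was sequenced, per the labels' protocols. The authors deposited 1 FPKM value per gene and library. TopHat2 2.0.13 and DESeq are named with the GRCh38 build, per the submitters' processing notes, and the sources used here do not give the program, annotation or strand setting behind the FPKM values. Rows were matched to GENCODE 29 by Ensembl identifier (56807 of 65198). The number of fragments per library is not known.

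Values were analysed as log2(FPKM + 1), and changes are on that scale, which understates those of low genes. A mean of 1 FPKM or more over the 6 libraries was required. The test was limma 3.58.1 (R 4.3.3) with an intensity trend and without pairing of replicates, and p was adjusted by the Benjamini-Hochberg method over all 15934 genes tested and a threshold of 0.05. The fit was tested on simulated data. Folds of group means are on the FPKM scale. Isozyme shares were compared by exact permutation tests in scipy 1.17.1. Alternatives were pseudocounts of 0.1 and 0.01, no filter, a minimum mean of 5 FPKM, median-of-ratios and quantile scaling, no trend, robust eBayes, a replicate block, centring on the 50 nearest coding genes and each library left out.

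Every member is accounted for. Of the other pathway genes, those past the threshold with an absolute log2 change of at least 0.5 were to be named, with SLC2A1, SLC16A3, SLC16A1 and MXI1, and 1 of them, which stays in the counts, is not reported here. The members and lists were chosen with earlier results of these data known.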

Additional observations from a re-analysis of the deposited data

How the results depend on the processing

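Of the 18 members that passed, 10 passed without each library in turn, and 4 (HIF1A, EPAS1, ALDOC and ANKRD37) under every alternative that tested them. Members higher in shHOTAIR numbered 8, with 5 when no filter on low values was used and 3 to 8 when a library was left out, and lower members 10, with 7 to 8 when a library was left out. Centring on neighbours left 2 lower members, none of them on chromosome 10 (0 against 5), and 4 higher and 5 lower other pathway genes against 7 and 9. For all genes called, it gave 2393 against 3797, and leaving out a library 2470 to 3159. Leaving out a library gave 5 to 6 lower members on chromosome 10 and 5 to 7 higher and 9 to 10 lower other pathway genes. Among the members and the other pathway genes chosen by the stated rule, the direction reversed for 6, none past the threshold there. With centring on neighbours these were PFKP (0.46), GAPDH (0.00372), P4HA1 (0.0177) and HIF1AN (0.0304), besides CUL2 described above, and with quantile normalization GAPDH (0.0825). With a library left out the GAPDH log2 change ran from -0.12 to 0.000362, the PDK2 log2 change from -0.00861 to 0.17 and the EGLN1 log2 change from -0.000603 to 0.0829, and the difference in the PDK2 share from -1.04 to 1.75 points against 0.188. The cause of these changes was not tested.

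Deviations of same-numbered libraries correlated at -0.022, 0.007 and -0.031, so no effect shared by number was seen. These values cannot show whether same-numbered libraries were prepared together. With a replicate block 2 members were higher and 7 lower, and the number of all genes called was 1740. Fragment numbers are not known, so the precision of genes under 1 FPKM such as CA9 and SLC16A1 cannot be given.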
